A study of Mus musculus with 12 samples.

Results

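The response of brown adipocytes labelled as empty-vector controls to norepinephrine (NE) was measured by RNA sequencing in 6 of the 12 libraries of the series. The cells were immortalized with the SV40 large T antigen from brown preadipocytes of a wild-type newborn mouse and, by their label, stably transduced with the empty lentiviral vector pLEX (cells labelled vector). They were plated at 300000 cells per well, differentiated with IBMX, rosiglitazone, dexamethasone, insulin and T3 on days 0 and 2 and kept with insulin and T3 alone from day 4 to day 8, moved to serum-free medium with BSA, and then left unstimulated or exposed to 2 μM NE for 6 h. Each group held 3 libraries, which the labels name technical replicates, so each p-value covers the spread between these libraries and not between mice, cell lines or transductions. All libraries labelled vector came from 1 immortalized line. The other 6 libraries came from the same preadipocytes carrying truncated Sema4B (tSema4B) in place of the empty vector, with and without NE. They served to share the estimate of the spread and to compare Sema4b levels and responses between the lines. They also counted in the filter that chose the tested genes, which 11508 genes passed on the 6 libraries labelled vector alone. Of 48321 genes listed, 11998 reached a normalized count of 10 in at least 3 of the 12 libraries, and these were the genes tested.

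Sema4b, the gene carried by the other line, was among the most abundant genes in the libraries labelled vector too. Its normalized counts were 124008, 110786 and 115596 in the unstimulated libraries and 81754, 65472 and 75571 in the NE libraries, which was 2.04% to 4.02% of their reads, and in 5 of these 6 libraries no nuclear gene stood higher. The libraries labelled tSema4B held 208760 to 316850, above every library labelled vector, and without stimulation the mean of the line labelled vector was 41.5% of that of the tSema4B line. Whether the label of empty vector holds at this level was not tested. Reads from the endogenous gene and from a construct cannot be told apart in these gene counts. The cells are therefore called by their label throughout, also where the 2 lines are compared.

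Brown adipocytes receive NE from sympathetic nerves. NE binds β-adrenergic receptors, which act through the stimulatory G protein to raise cyclic AMP (cAMP), and protein kinase A (PKA) then phosphorylates both the lipolytic machinery and transcription factors of the CREB family. Free fatty acids released from triglyceride feed mitochondrial oxidation and activate UCP1, the inner membrane protein that lets protons return without making ATP, so that heat is released. Phosphodiesterases, which break down cAMP, and regulators of receptor signalling limit the signal.

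The libraries labelled vector held 2841941 to 3682634 reads on genes without stimulation and 4739777 to 5409583 after NE, so the NE libraries were deeper, and 1 read was worth 0.841 to 1.09 normalized counts in the former and 0.593 to 0.672 in the latter. Mitochondrially encoded genes took 13.4% to 15.8% of reads without stimulation and 15.6% to 16.7% after NE, and with all libraries rescaled over nuclear genes 192 genes were called higher and 126 lower, 309 of them among the 316 main calls. With all libraries thinned to the depth of the shallowest, a setting chosen after seeing the data, 206 genes were called higher and 129 lower after NE. Values are normalized counts, given as the mean ± SD of 3 libraries unless each library is listed, and the log2 change of a gene is the difference between group means of log2(normalized count + 1). A gene was called when limma, fitted over all 11998 genes, gave it a Benjamini-Hochberg adjusted p no higher than 0.05 and its log2 change was 1 or more in either direction. Of 114 genes named by rule and placed on the annotation (GRCm38), 39 had an exon overlapping an exon of another gene, among them Junb with Prdx2, Timp3 with Syn3, Cebpb with Tmem189 and Gnl3 with Pbrm1. As this library type does not mark strand, reads in such overlaps cannot be assigned to 1 gene with certainty.

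The libraries carried an adipocyte expression profile with low levels of several brown adipocyte genes. Of 14 defining markers, 11 were tested. Without stimulation, Fabp4, the fatty acid carrier of adipocytes, stood at 24034 ± 974 normalized counts, Adipoq, which encodes adiponectin, at 2458 ± 297, Pparg at 356 ± 51.3 and Cidea, a lipid droplet protein of brown fat, at 52.2 ± 10.8. Dio2, the deiodinase that activates thyroid hormone, had 0 reads in all 6 libraries labelled vector, Cox8b had 4 reads without stimulation and 9 after NE, and Zic1, a lineage marker of classical brown fat, had 1 and 9. In bulk RNA, fewer cells of a type and less RNA per cell cannot be told apart.

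NE raised the level of more genes than it lowered. By the call rule, 199 genes (1.66% of those tested) were higher and 117 (0.975%) lower after NE. The adjusted p alone was passed by 818 genes (6.82%) in the higher and 574 (4.78%) in the lower direction, so most passing differences were below 2-fold. Over all tested genes the median log2 change was -0.0192, with quartiles of -0.279 and 0.256. In 3990 genes (33.3%) the 3 NE libraries lay entirely above or entirely below the 3 unstimulated ones, 2108 above (17.6%) and 1882 below (15.7%). When every library was instead rescaled to the same total, 174 genes were higher and 145 lower, which moved the higher share of calls from 63% to 54.5%.

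**Figure D1:**
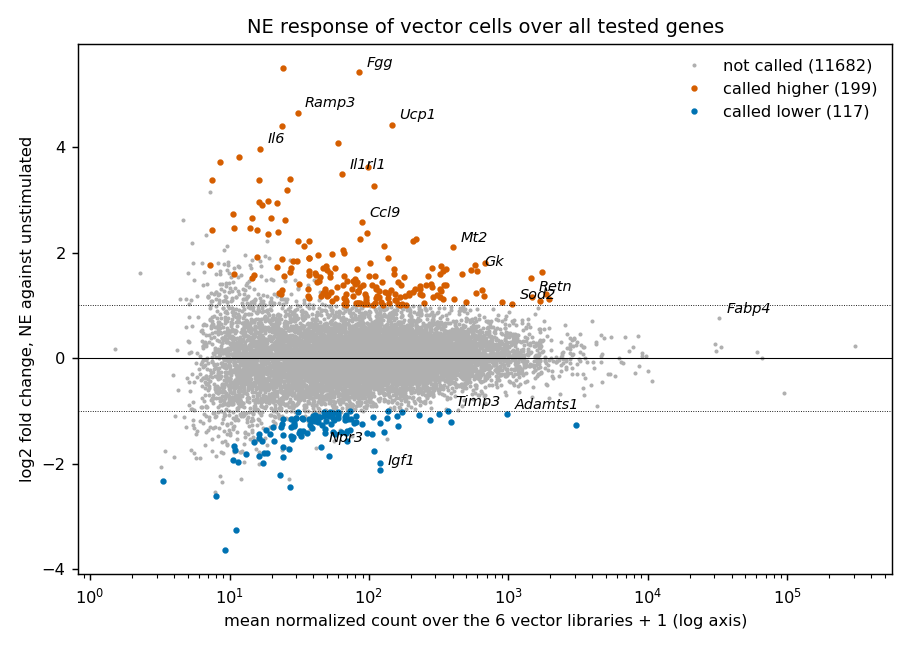
Log2 change, NE against unstimulated cells labelled vector (y axis), against the mean normalized count + 1 over the 6 libraries labelled vector on a log axis (x axis) for 11998 genes, each point 1 gene. The 199 genes called higher and the 117 called lower are coloured, dotted lines mark the fold threshold, and Ucp1, at a log2 change of 4.42, lies among the farthest above 0.

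Ucp1 was the reference gene with the largest change. It lies at chr8:83290352-83298452, plus strand (GRCm38). Its normalized counts were 15.2, 9.25 and 11.98 in the unstimulated libraries and 293, 268 and 268 in the NE libraries, a 21.4-fold higher level (log2 change 4.42, SE 0.36, adjusted p = 3.79e-08). No NE library overlapped an unstimulated one. Gk, the glycerol kinase with which brown adipocytes re-use the glycerol released by lipolysis, was also higher, at 298, 267 and 294 in the unstimulated libraries and 994, 808 and 891 in the NE libraries (log2 change 1.64, SE 0.18, adjusted p = 1.90e-06), again without overlap. These were the 2 called members of 22 tested genes on the list of thermogenic regulators and brown adipocyte markers, both higher, as were 1.66% of all tested genes. Ucp1 was also the one called gene of the 11 tested brown adipocyte markers. With edgeR, DESeq2 or a model of the 6 libraries alone, 4 and 2 genes of these lists were called higher. The thermogenic list's median log2 change was 0.14. Several regulators usually grouped with Ucp1 were not called. Ppargc1a, a coactivator of mitochondrial gene programmes, measured 20.8 to 13.5 (log2 change -0.58, adjusted p = 0.56). Prdm16, a determinant of brown fat identity, had a log2 change of -0.23, adjusted p = 0.83, and Cidea one of -0.01, adjusted p = 0.994. Elovl3, an elongase of very long chain fatty acids, measured 45.7 ± 20.6 to 92.3 ± 18.4 and did not pass (1.06, adjusted p = 0.108).

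**Figure D2:**
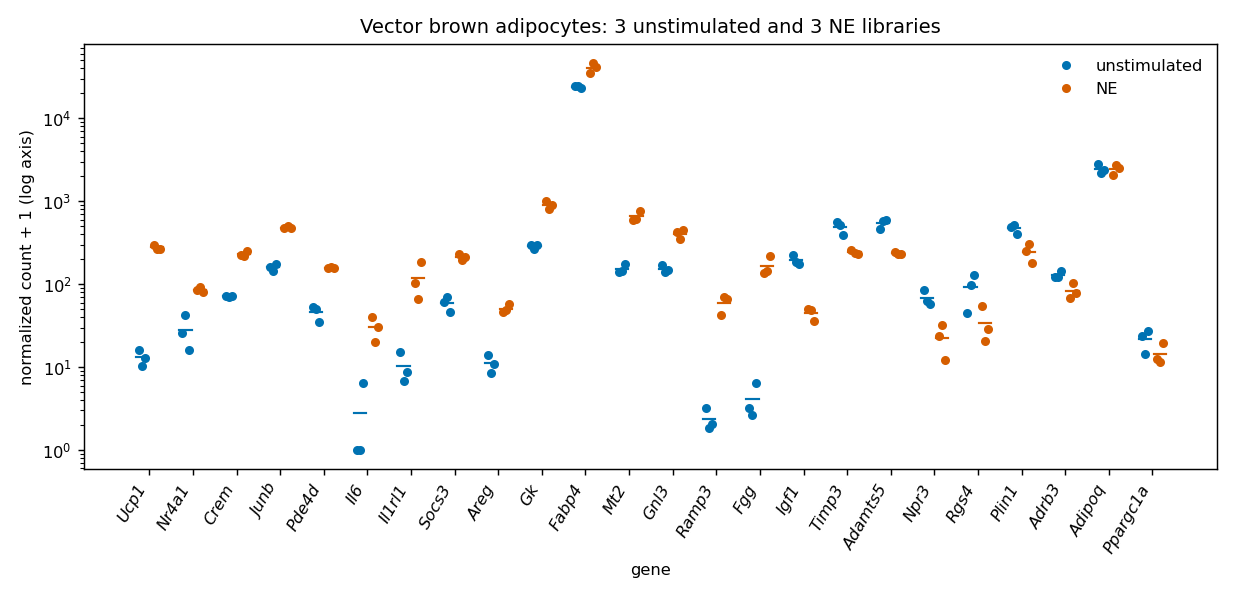
Normalized count + 1 on a log axis (y) of 24 genes in each of the 3 unstimulated and 3 NE libraries labelled vector, each point 1 library and each bar the group mean. Ucp1, Crem, Il1rl1, Mt2, Igf1 and Adamts5 show no overlap between groups, whereas the points of Adipoq and Ppargc1a overlap.

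On the receptor side of the pathway, no member of 24 tested receptors, G proteins, cyclases and PKA subunits was called in either direction. Adrb3, the β3-adrenergic receptor of adipocytes, read 122, 122 and 144 in the unstimulated libraries and 67.2, 101 and 76.6 in the NE libraries. All 3 NE values were below the unstimulated ones, but the difference missed the threshold (log2 change -0.67, SE 0.36, adjusted p = 0.268). Adrb1 was too low to test, with 10 reads over the unstimulated libraries and 14 over the NE libraries. Pkig, an inhibitor of PKA, and Prkar2a, a regulatory subunit of PKA, passed the adjusted p alone with log2 changes of 0.98 and 0.74, and the anchoring protein gene Akap12 did so at -0.60.

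Both called members of the 14 tested phosphodiesterases encode cAMP-specific enzymes of the PDE4 family and rose, as did 1.66% of all tested genes. Pde4d, at chr13:108449948-109953461, plus strand, read 52.1, 48.8 and 33.8 in the unstimulated libraries and 155, 161 and 155 in the NE libraries (log2 change 1.81, SE 0.31, adjusted p = 0.000423). Pde4b, at chr4:102087543-102607259, plus strand, read 69.5, 89.1 and 88.2 in the unstimulated libraries and 193, 179.6 and 202 in the NE libraries (log2 change 1.22, SE 0.21, adjusted p = 0.000519). Neither gene's groups overlapped. Pde3b, the phosphodiesterase through which insulin restrains lipolysis, did not pass, with 239 ± 17.6 to 263 ± 12.01 normalized counts (0.14, adjusted p = 0.715).

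Among 17 tested RGS proteins, receptor kinases and arrestins, none was called higher and 2 were called lower (1.66% and 0.975% of all tested genes). RGS proteins speed GTP hydrolysis by G protein α subunits and so end their signal. Rgs2 passed the adjusted p alone at a log2 change of 0.71, with values of 587, 589 and 526 in the unstimulated libraries and 982, 857 and 945 in the NE libraries. Rgs3 and Rgs4 were the called ones, with log2 changes of -1.24 and -1.40, and the groups of Rgs4 overlapped. The call ended when 1 library was left out for Rgs3 (unstimulated replicate 1 or 3 or NE replicate 1 or 2, adjusted p 0.0559 to 0.0868) and Rgs4 (unstimulated replicate 2 or 3 or NE replicate 2 or 3, adjusted p 0.0694 to 0.113).

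Of 32 tested immediate-early and CREB-family genes, 6 were called higher (Nr4a1, Crem, Junb, Ier5, Ier3 and Fosl1) and none lower, against 1.66% and 0.975% of all tested genes, and the list's median log2 change was 0.17. Crem, whose promoters give rise to CREM activators and the cAMP-inducible repressor ICER, read 71.7, 69.8 and 70.8 in the unstimulated libraries and 224, 219 and 249 in the NE libraries (log2 change 1.69, SE 0.20, adjusted p = 6.62e-06). Junb, an AP-1 subunit, read 159.6, 145 and 175 in the unstimulated libraries and 471, 495 and 477 in the NE libraries (log2 change 1.59, SE 0.14, adjusted p = 8.27e-08). Nr4a1, an orphan nuclear receptor induced by cAMP, read 24.98, 41.2 and 15.2 in the unstimulated libraries and 83.3, 90.7 and 79.2 in the NE libraries (log2 change 1.71, SE 0.36, adjusted p = 0.00338). Every NE library exceeded every unstimulated one for all 3. Nr4a3, too low for the test, had 0 reads over the unstimulated libraries and 22 over the NE libraries. The lower limit of the 95% counting interval of its ratio was 3.53, and a floor of 3 reads for the unstimulated group gave 4.72. Fos did not pass, at 65.4 ± 1.83 to 75.5 ± 15.2 (0.18, adjusted p = 0.718), and Nr4a2 measured 22.98 ± 10.2 to 41.5 ± 4.16 (0.91, adjusted p = 0.213). The zinc finger genes Egr1 and Egr2 passed the adjusted p alone in the lower direction, at log2 changes of -0.69 and -0.92, and Myc and Fosl2 did so in the higher direction at 0.96 and 0.91. Without single libraries the call of Ier5 (unstimulated replicate 2 or NE replicate 2 or 3, adjusted p 0.0685 to 0.116) was lost.

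CREB binds the cAMP response element TGACGTCA, whose core is also read as the half-site TGACG. Promoter windows of 300 bases, from 250 before to 50 after the start, were taken from RefSeq (GRCm38.p6) and searched on both strands. A window was found for 8681 of the 11998 tested genes, 149 of the 199 called higher and 89 of the 117 called lower. TGACGTCA was present in 2.68% of windows of genes called higher, 1.12% of those called lower and 3.82% of all. TGACG, which every TGACGTCA contains, was present in 32.2%, 22.5% and 37.0% of these windows. The AP-1 element TGANTCA was present in 11.4%, 7.87% and 5.94%, and AAAGGTCA, the element bound by NR4A receptors, in 2.01%, 0% and 0.991%. The shares are descriptions with no test. Of the 6 called immediate-early genes, 4 had a window, none of these held TGACGTCA, and 2 (Nr4a1 and Junb) held TGACG. The upstream sequences of 4 genes are shown, chosen after the values were seen, for the main thermogenic gene, for the immediate-early gene with most half-sites, and for a pair of called genes that hold the full element. Capitals mark TGACGTCA in Areg and Has1 and TGACG or its reverse complement CGTCA in Nr4a1 and Ucp1, and each runs 5′ to 3′ on the strand of the gene and ends at the base before the start.
Areg, chr5:91139349-91139598, plus strand: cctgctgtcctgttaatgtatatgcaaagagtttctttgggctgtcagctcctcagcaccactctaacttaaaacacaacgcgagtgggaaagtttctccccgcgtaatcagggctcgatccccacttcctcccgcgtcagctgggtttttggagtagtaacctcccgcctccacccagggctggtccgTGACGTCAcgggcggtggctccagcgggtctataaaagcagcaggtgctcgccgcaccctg
Has1, chr17:17855189-17855438, minus strand: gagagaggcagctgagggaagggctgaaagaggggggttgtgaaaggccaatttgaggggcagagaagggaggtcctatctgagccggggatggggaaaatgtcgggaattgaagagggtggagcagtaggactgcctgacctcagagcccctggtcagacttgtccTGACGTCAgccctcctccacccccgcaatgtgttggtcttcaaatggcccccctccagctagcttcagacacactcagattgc
Nr4a1, chr15:101266596-101266845, plus strand: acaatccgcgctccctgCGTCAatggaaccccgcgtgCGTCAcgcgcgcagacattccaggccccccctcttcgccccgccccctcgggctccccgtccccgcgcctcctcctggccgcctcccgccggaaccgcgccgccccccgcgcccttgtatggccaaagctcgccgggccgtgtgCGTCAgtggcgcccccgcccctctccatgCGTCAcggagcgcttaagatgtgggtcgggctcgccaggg
Ucp1, chr8:83290098-83290347, plus strand: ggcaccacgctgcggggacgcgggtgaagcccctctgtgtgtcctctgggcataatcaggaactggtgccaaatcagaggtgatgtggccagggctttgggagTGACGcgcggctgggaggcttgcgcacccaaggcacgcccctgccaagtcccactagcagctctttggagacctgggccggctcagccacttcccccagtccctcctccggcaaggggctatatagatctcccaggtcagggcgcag
The element starts at position -61 in Areg and -83 in Has1 relative to the start, the half-sites of Nr4a1 at -233, -213, -69 and -40, and that of Ucp1 at -147. Has1, a hyaluronan synthase, went from 4.90 ± 4.11 to 37.3 ± 10.9 (log2 change 2.94, SE 0.74, adjusted p = 0.0115).

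Lipid genes were called in both directions. Among 27 tested lipolysis genes, Hcar2 was called higher and Npr3 lower (1.66% and 0.975% of all tested genes). Hcar2, a receptor whose G protein inhibits cAMP formation and lipolysis, read 23.9, 33.6 and 20.7 in the unstimulated libraries and 101, 94.2 and 120.5 in the NE libraries (log2 change 1.995, SE 0.44, adjusted p = 0.00481). Npr3, the clearance receptor for natriuretic peptides, read 83.6, 62.2 and 56.6 in the unstimulated libraries and 22.8, 30.8 and 11.1 in the NE libraries (log2 change -1.69, SE 0.33, adjusted p = 0.00173). Neither gene's groups overlapped. The lipases themselves did not pass: Pnpla2, which starts triglyceride breakdown, went from 1673 ± 232 to 1791 ± 65.6 (0.11, adjusted p = 0.626) and Lipe from 332 ± 69.8 to 365 ± 40.7 (0.15, adjusted p = 0.628). Plin1, the lipid droplet coat protein that PKA phosphorylates, passed the adjusted p without reaching the fold threshold, at 494, 520.5 and 396 in the unstimulated libraries and 248, 308 and 177 in the NE libraries (log2 change -0.97, SE 0.29, adjusted p = 0.03), and it was called lower under 4 of 19 alternatives, with log2 changes down to -1.15. Of the 27 genes, 5 passed the adjusted p at any fold in the higher direction and 4 in the lower, against 6.82% and 4.78% of all tested genes. Among them were also G0s2, an inhibitor of Pnpla2, at -0.69, and Fabp4 in the higher direction at 0.76.

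On the list of fatty acid uptake and triglyceride synthesis, Gk and Agpat9, an acyltransferase that makes lysophosphatidic acid, were the 2 of 33 tested genes called, both higher (1.66% of all tested genes). Agpat9 went from 36.02 ± 4.77 to 101 ± 13.5 (log2 change 1.46, SE 0.31, adjusted p = 0.00324). Lpl, which frees fatty acids from circulating lipoproteins, and the transporter Cd36 were not called, with log2 changes of 0.21, adjusted p = 0.0927 and -0.29, adjusted p = 0.0602. No member of the 30 tested lipogenic genes was called, although 6 passed the adjusted p alone in the lower direction and 1 in the higher, against 4.78% and 6.82% of all tested genes. Fads2 (-0.98), Fasn (-0.91) and Scd2 (-0.76) were the farthest below 0 among the 6, and Scd1 (0.40) was the one above. The cholesterol list had a median log2 change of -0.36 over 35 tested genes, and 11 of them passed the adjusted p alone in the lower direction (4.78% of all tested genes) and 2 in the higher (6.82%). Abcg1, which exports cholesterol, was its one gene called higher, at 59.7, 53.8 and 37.03 in the unstimulated libraries and 174, 122 and 147 in the NE libraries (log2 change 1.55, SE 0.31, adjusted p = 0.00196). Mvk, a kinase of the mevalonate pathway, was the one called lower (log2 change -1.03, SE 0.24, adjusted p = 0.00602), a call lost when 1 library was left out (unstimulated replicate 1 or NE replicate 1, log2 change -0.984 to -0.979).

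Of 30 tested adipogenic transcription factors, Cebpd and Cebpb, C/EBP factors that act early in adipocyte differentiation, were called higher, against 1.66% of all tested genes. Cebpd went from 158 ± 23.4 to 403 ± 48.98 (log2 change 1.35, SE 0.16, adjusted p = 5.17e-06) and Cebpb from 39.8 ± 2.40 to 94.1 ± 7.61 (log2 change 1.22, SE 0.29, adjusted p = 0.00809). Pparg, the master regulator of adipocytes, read 351, 409 and 307 in the unstimulated libraries and 212, 250.1 and 187 in the NE libraries, below the unstimulated values in all 3 libraries, and passed the adjusted p but not the fold threshold (log2 change -0.71, SE 0.19, adjusted p = 0.0146). Cebpa did not pass (0.03, adjusted p = 0.956). Insulin signalling had 2 called genes of 37, Socs3 and the pseudokinase gene Trib1 (log2 change 1.14, SE 0.25, adjusted p = 0.00448), both higher, against the same share of all genes. With reads thinned to the shallowest library Trib1 fell below the fold threshold (log2 change 0.945). The list's median log2 change was -0.22.

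Glucose and lactate genes included 2 calls among 36 tested, both higher (1.66% of all tested genes were) and both monocarboxylate transporters that move lactate and pyruvate. Slc16a1 read 574, 689 and 488 in the unstimulated libraries and 1249, 1104 and 1275 in the NE libraries (log2 change 1.06, SE 0.12, adjusted p = 5.38e-06) and Slc16a3 read 117, 117 and 96.9 in the unstimulated libraries and 219, 269.7 and 262 in the NE libraries (log2 change 1.17, SE 0.23, adjusted p = 0.00179). Neither overlapped between groups. Leaving out 1 library brought Slc16a1 below the fold threshold (unstimulated replicate 3, log2 change 0.939). The basal glucose transporter gene Slc2a1 passed the adjusted p alone at 0.69, and the insulin-regulated Slc2a4 did not pass (-0.86, adjusted p = 0.152).

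Mitochondrial lists had few calls. None of 81 nuclear-encoded respiratory chain genes was called, 10 passed the adjusted p alone in the higher direction and 1 in the lower, against 6.82% and 4.78% of all tested genes, and the median log2 change was 0.26. Atp5k (0.87), Cox6c (0.66) and Atp5e (0.60) were the farthest above 0, and Sdha (-0.36) was the one below. None of 8 tested mitochondrially encoded genes, 42 fatty acid oxidation genes or 31 genes of the tricarboxylic acid cycle was called. Of 76 mitochondrial ribosomal proteins, 1 was called, Mrpl52, and it was higher (1.66% of all tested genes). In all, 11 passed the adjusted p alone, all in the higher direction (6.82% of all tested genes), and the list's median log2 change was 0.29. Pprc1, a coactivator related to Ppargc1a, was the one called gene of 36 tested on the list of mitochondrial biogenesis (log2 change 1.01, SE 0.25, adjusted p = 0.0108). It was higher, as were 1.66% of all tested genes. Both calls were lost when 1 library was removed, as for Mrpl52 (unstimulated replicate 2, adjusted p 0.0524) and Pprc1 (unstimulated replicate 2 or 3 or NE replicate 1 or 3, adjusted p 0.0503 to 0.0516 or log2 change 0.979).

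Genes that build ribosomes were called in the higher direction only. Of 53 tested ribosome biogenesis genes, 13 were called higher and none lower, against 1.66% of all tested genes called higher. The adjusted p alone was passed by 36, all in the higher direction (6.82% of all tested genes), and in 48 all 3 NE libraries lay above the unstimulated ones (17.6% of all), with a median log2 change of 0.83. Nop16, a nucleolar protein, read 76.02, 102 and 93.7 in the unstimulated libraries and 295, 225 and 271 in the NE libraries (log2 change 1.53, SE 0.19, adjusted p = 8.14e-06). Gnl3, which encodes nucleostemin, read 168, 140.4 and 146 in the unstimulated libraries and 426, 348 and 447 in the NE libraries (log2 change 1.41, SE 0.16, adjusted p = 3.54e-06). Rrp9, a component of the U3 small nucleolar ribonucleoprotein, went from 43.8 ± 17.5 to 117 ± 23.3 (log2 change 1.45, SE 0.31, adjusted p = 0.00395), and Rrp12, a factor of ribosomal subunit export, from 21.7 ± 3.93 to 64.7 ± 11.8 (log2 change 1.53, SE 0.48, adjusted p = 0.0403). All 4 were without overlap, and the call of Rrp12 alone among them was lost when any of the 6 libraries labelled vector was left out (adjusted p 0.073 to 0.148). The other called members were Ddx21, Nhp2, Lyar, Nolc1, Nop56, Mrto4, Wdr12, Ddx18 and Rrp1b, with log2 changes from 1.001 to 1.36.

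The 83 tested cytosolic ribosomal protein genes had no call. Their median log2 change was 0.54, 35 passed the adjusted p alone in the higher direction (6.82% of all tested genes did) and none in the lower, and in 65 the 3 NE libraries lay above the others (17.6% of all). Rpl37, at 178 ± 27.4 to 336 ± 46.4 (log2 change 0.92, SE 0.21, adjusted p = 0.00695), was the farthest above 0 among those that passed. Ribosomal protein genes have many processed pseudogenes, so reads may be shared between near-identical copies. Leaving the mitochondrial reads out of the totals or rescaling to equal totals kept the medians of both lists above 0. In tSema4B cells the ribosomal protein list had a median of -0.08.

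**Figure D3:**
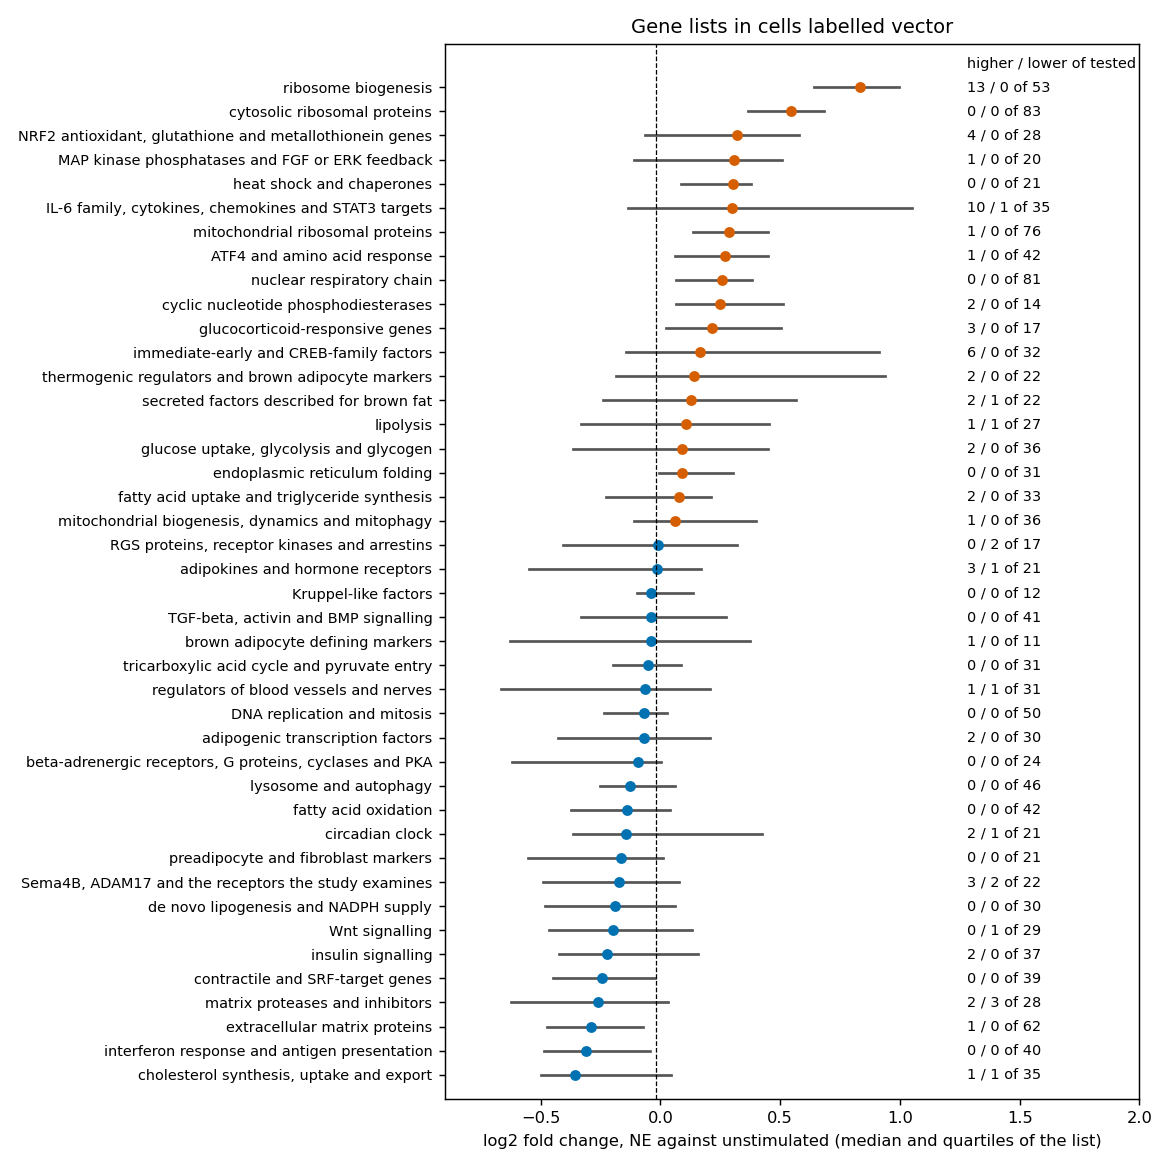
Median log2 change, NE against unstimulated cells labelled vector (x axis), of each gene list with at least 10 tested genes (y axis), with lines from the lower to the upper quartile, the dashed line at the median of all 11998 genes, points coloured by the sign of the median, and the numbers called higher and lower at the right. Ribosome biogenesis, with a median of 0.83 and 13 of 53 called higher, is farthest to the right.

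Cytokine genes included strong increases from low levels. Of 35 tested genes on the list of IL-6 family members, cytokines, chemokines and STAT3 targets, 10 were called higher (Il6, Il33, Il1rl1, Ccl9, Socs3, Bcl3, Osmr, Clcf1, Nfkbiz and Cxcl1) and 1 lower (Cxcl16), against 1.66% and 0.975% of all tested genes, and the list's median log2 change was 0.30. Il6, at chr5:30013114-30019981, plus strand, had 5 reads over the unstimulated libraries and 136 over the NE libraries, a ratio of 17.5 (95% counting interval 7.32 to 54.8). The interval covers counting error only. All 5 unstimulated reads of Il6 lay in replicate 3, so this library alone sets the ratio. Il33, an alarmin, had 1 read over the unstimulated libraries and 97 over the NE libraries, a ratio of 62.5 (95% counting interval 10.9 to 2490). Il6 and Il33 reached 10 normalized counts in NE libraries only. Their place among the tested genes, and so in the count of calls, rested on their levels after NE.

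Il1rl1, the receptor for IL-33, read 14.1, 5.89 and 7.62 in the unstimulated libraries and 101, 64.6 and 187 in the NE libraries (log2 change 3.49, SE 0.35, adjusted p = 8.11e-07). Socs3, a feedback inhibitor of IL-6 family receptors, read 59.7, 68.1 and 44.7 in the unstimulated libraries and 229, 197 and 213 in the NE libraries (log2 change 1.89, SE 0.23, adjusted p = 8.11e-06), and the chemokine gene Ccl9 went from 27.6 ± 16.4 to 148 ± 12.7 (log2 change 2.57, SE 0.39, adjusted p = 0.000117). None of these 3 overlapped between groups. The receptor subunit gene Il6st and Stat3 passed the adjusted p alone at 0.74 and 0.71, and Lifr and Il11ra1, the receptors for LIF and IL-11, passed it in the lower direction at -0.78 and -0.93. The summed level of 10 macrophage markers moved in the same direction, while 5 of them, Ptprc and Adgre1 included, had no read in any library labelled vector. Single libraries decided the calls of Il33 (NE replicate 3, adjusted p 0.059) and Cxcl16 (unstimulated replicate 3 or NE replicate 3, adjusted p 0.0756 to 0.0857).

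A list was assembled here around the study's pathway, in which the protease ADAM17 releases the ectodomains of Sema4B and of EGF-family ligands. The list also holds genes that the paper's text does not name, among them Ereg, Nrg1 and Timp3. Of its 22 tested genes, 3 were called higher and 2 lower, against 1.66% and 0.975% of all tested genes. The EGF-family ligand Areg, at chr5:91139599-91148432, plus strand, read 13.03, 7.57 and 9.80 in the unstimulated libraries and 45.7, 47.4 and 56.3 in the NE libraries (log2 change 2.21, SE 0.49, adjusted p = 0.00427), with no overlap. Ereg and Hbegf, ligands of the same family, were called higher at log2 changes of 1.45 and 1.56, and Nrg1, a neuregulin, lower at -1.80. Timp3, the endogenous inhibitor of ADAM17, was lower, from 490.3 ± 85.3 to 242 ± 13.2 (log2 change -1.002, SE 0.14, adjusted p = 5.67e-05). Sema4b, at the high levels given at the start, was lower in all 3 NE libraries and passed the adjusted p but not the fold threshold (log2 change -0.66, SE 0.09, adjusted p = 2.86e-05), while Adam17 (-0.13, adjusted p = 0.539), Rhbdf2, which encodes the iRhom2 partner of ADAM17 (-0.50, adjusted p = 0.492), and the receptor gene Nrp1 (0.07, adjusted p = 0.79) did not pass. Of the called ones, Areg kept its call under every alternative, and removal of 1 library ended those of Ereg (unstimulated replicate 1 or 3 or NE replicate 1 or 3, adjusted p 0.0737 to 0.109), Hbegf (unstimulated replicate 2 or 3 or NE replicate 1, 2 or 3, adjusted p 0.0543 to 0.16), Nrg1 (unstimulated replicate 1 or 3 or NE replicate 2 or 3, adjusted p 0.0851 to 0.152) and Timp3 (unstimulated replicate 1 or 2 or NE replicate 2 or 3, log2 change -0.991 to -0.902).

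**Figure D4:**
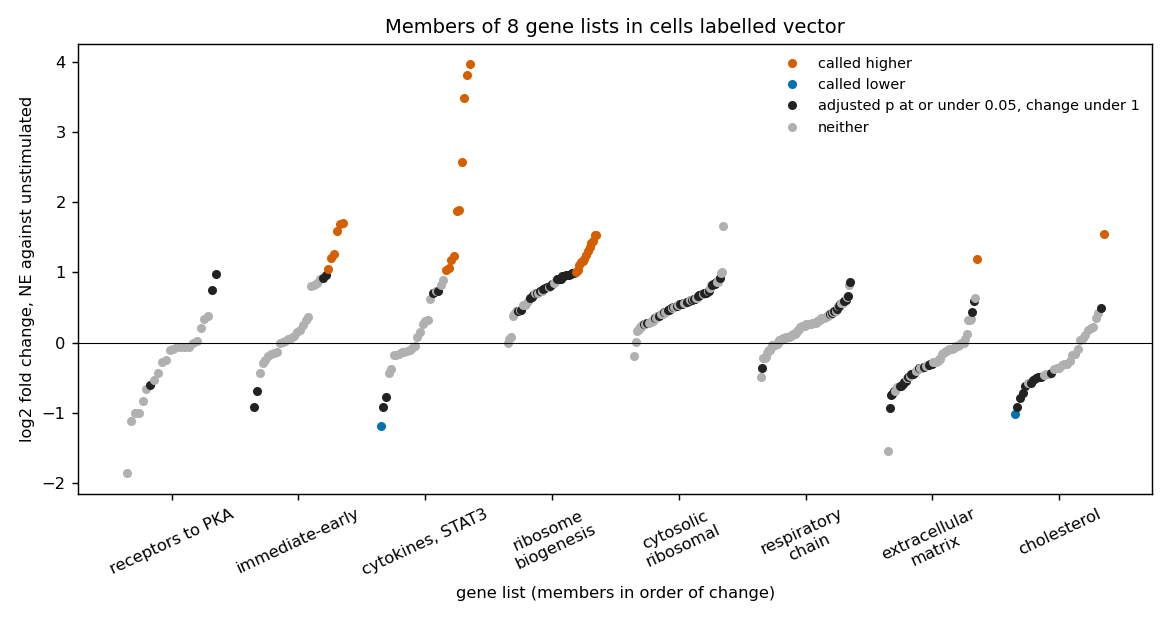
Log2 change, NE against unstimulated cells labelled vector (y axis), of every tested member of 8 gene lists (x axis, members in order of change), each point 1 gene, coloured by call and black where only the adjusted p was passed. Points of the cytosolic ribosomal proteins lie mostly between 0 and 1, while the cytokine list spreads from Il6 at 3.97 down to Cxcl16 at -1.19.

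Secreted proteins and hormone receptors changed in both directions. Ramp3, which pairs with the calcitonin receptor-like receptor to bind adrenomedullin, had 4 reads over the unstimulated libraries and 277 over the NE libraries, a ratio of 44.6 (95% counting interval 17.2 to 165). Igf1, a growth factor made by adipocytes, was among the genes called lower with the smallest adjusted p. Its values were 224, 186 and 176 in the unstimulated libraries and 49.7, 47.4 and 35.4 in the NE libraries, with no overlap (log2 change -2.13, SE 0.16, adjusted p = 1.22e-08). Retn, the adipokine resistin, read 975, 895 and 852 in the unstimulated libraries and 1854, 2232 and 2017 in the NE libraries (log2 change 1.16, SE 0.20, adjusted p = 0.000573). Cxcl14, a chemokine released by brown fat, read 10.9, 13.5 and 11.98 in the unstimulated libraries and 69.9, 58.7 and 53.03 in the NE libraries (log2 change 2.23, SE 0.34, adjusted p = 0.000155), and again neither of these genes' groups overlapped.

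In all, 3 of 21 tested adipokine and hormone receptor genes were called higher (Ramp3, Apln and Retn) and 1 lower (Ptger4), and 2 of 22 secreted factors described for brown fat were called higher (Il6 and Cxcl14) and 1 lower (Igf1), against 1.66% of all tested genes called higher and 0.975% lower. Ramp3 and Il6 reached 10 normalized counts in NE libraries only, so their place in these counts rested on their levels after NE. Adipoq read 2789, 2212 and 2373 in the unstimulated libraries and 2047, 2763 and 2519 in the NE libraries and did not pass (-0.01, adjusted p = 0.964). Fgf21, a hormone released by brown fat in the cold, was near the filter at 8.97 ± 1.71 to 13.2 ± 3.98 (0.49, adjusted p = 0.756). Vegfa, the vascular growth factor, read 33.7, 26.9 and 19.6 in the unstimulated libraries and 25.5, 28.4 and 30.1 in the NE libraries, with overlap (0.10, adjusted p = 0.936). On the list of regulators of blood vessels and nerves, of 31 tested genes Hbegf was called higher and Angpt1, a ligand of the endothelial TIE2 receptor, lower (log2 change -1.23, SE 0.25, adjusted p = 0.00222). The same background shares apply there. Without single libraries the calls were lost for Apln (unstimulated replicate 3 or NE replicate 1 or 3, adjusted p 0.0535 to 0.0737), Ptger4 (unstimulated replicate 1, 2 or 3 or NE replicate 1, 2 or 3, adjusted p 0.0514 to 0.135) and Angpt1 (NE replicate 2, log2 change -0.931).

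The largest increases, taken among genes whose groups did not overlap and with a mean of at least 50, included Fgg, the fibrinogen γ chain, with 9 reads over the unstimulated libraries and 776 over the NE libraries, a ratio of 55.5 (95% counting interval 29.1 to 122). Lrrc32, which displays latent TGF-β on the cell surface, went from 6.18 ± 4.15 to 112 ± 32.8 (log2 change 4.07, SE 0.39, adjusted p = 3.39e-07), Prg4, a lubricating proteoglycan, from 14.04 ± 6.89 to 181 ± 63.3 (log2 change 3.63, SE 0.54, adjusted p = 9.89e-05) and Fgl2, a fibrinogen-like protein, from 20.3 ± 8.06 to 196 ± 18.3 (log2 change 3.27, SE 0.36, adjusted p = 2.48e-06). Gfra1, the receptor of GDNF, went from 30.8 ± 7.66 to 161 ± 5.77 (log2 change 2.38, SE 0.22, adjusted p = 2.59e-07), and Gda, guanine deaminase, from 73.4 ± 11.5 to 359.7 ± 105 (log2 change 2.25, SE 0.25, adjusted p = 2.40e-06). Among the 15 largest decreases by the same rule, besides Igf1, Smoc2, a matricellular protein, went from 189.8 ± 33.7 to 47.2 ± 10.3 (log2 change -1.99, SE 0.28, adjusted p = 5.06e-05), Lrrc17 from 166 ± 24.8 to 48.5 ± 10.3 (log2 change -1.77, SE 0.20, adjusted p = 3.89e-06), and Aoc3, an amine oxidase on the adipocyte surface, from 104 ± 24.1 to 33.8 ± 2.88 (log2 change -1.57, SE 0.28, adjusted p = 0.000863). Aspn, a small leucine-rich proteoglycan, and Ddit4l, an inhibitor of mTOR signalling, were also among them, with log2 changes of -1.41 and -1.44.

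Of 62 tested extracellular matrix genes, 1 was called higher and none lower, but 18 passed the adjusted p alone in the lower direction (4.78% of all tested genes did) and 3 in the higher (6.82% of all), and the median log2 change was -0.29. The called gene was Tnc, tenascin C, at 182, 176 and 198 in the unstimulated libraries and 419.9, 343 and 531 in the NE libraries (log2 change 1.19, SE 0.18, adjusted p = 0.000152). Col1a1, an abundant fibrillar collagen, read 5594, 5801 and 5816 in the unstimulated libraries and 5115, 4323 and 4543 in the NE libraries, below in every NE library (log2 change -0.30, SE 0.07, adjusted p = 0.00597), and Sparcl1 (-0.93), Col6a2 (-0.73) and Col6a1 (-0.70) also passed the adjusted p alone. Among 28 tested matrix proteases and inhibitors, Adamts5 and Adamts1, which cleave aggrecan and versican, and the inhibitor Timp3 were called lower (0.975% of all tested genes), and Timp1 and Adamts9 higher (1.66%). Adamts5 read 463, 571 and 591 in the unstimulated libraries and 241, 231 and 229 in the NE libraries (log2 change -1.20, SE 0.13, adjusted p = 2.42e-06). Timp1 went from 256 ± 29.2 to 558 ± 96.3 (log2 change 1.11, SE 0.13, adjusted p = 6.73e-06) and Adamts1 from 1323 ± 103 to 636 ± 100.2 (log2 change -1.06, SE 0.11, adjusted p = 1.68e-06). Groups of these 3 genes did not overlap. A single library mattered for Adamts1 (NE replicate 2, log2 change -0.943), Adamts9 (unstimulated replicate 1 or 3 or NE replicate 2 or 3, adjusted p 0.0556 to 0.131) and Timp1 (NE replicate 3, log2 change 0.980).

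Contractile and SRF-target genes had no call among 39, with 9 passing the adjusted p alone in the lower direction (4.78% of all tested genes), Myl9 (-0.84) and Flnc (-0.84) farthest, and 1 in the higher (6.82% of all). Of 29 Wnt signalling genes, only Rspo3, an enhancer of Wnt signalling, was called, and it was lower, as were 0.975% of all tested genes. Its log2 change was -1.37 (SE 0.34, adjusted p = 0.0106), a call lost when 1 library was left out (unstimulated replicate 2 or NE replicate 3, adjusted p 0.0579 to 0.0744). None of 41 TGF-β, activin and BMP genes and none of 21 preadipocyte and fibroblast markers was called.

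The metallothioneins, small proteins that bind zinc and copper, were among the clearest increases. Mt2, at chr8:94172664-94173568, plus strand, read 139, 144 and 172 in the unstimulated libraries and 593, 615 and 755 in the NE libraries (log2 change 2.10, SE 0.15, adjusted p = 9.10e-09). Mt1 read 1217, 1164 and 1293 in the unstimulated libraries and 2365, 2629.8 and 3029 in the NE libraries (log2 change 1.12, SE 0.12, adjusted p = 1.38e-06). Slc39a14, a zinc and iron importer, went from 14.99 ± 4.01 to 57.6 ± 4.94 (log2 change 1.90, SE 0.35, adjusted p = 0.00107), and Sod2, the mitochondrial superoxide dismutase, from 707 ± 80.5 to 1431 ± 70.3 (log2 change 1.02, SE 0.11, adjusted p = 2.44e-06). None of the 4 overlapped between groups. These were the 4 calls, all higher, among 28 tested NRF2, glutathione and metallothionein genes, against 1.66% of all tested genes. Leaving out a library brought Sod2 below the fold threshold (unstimulated replicate 3 or NE replicate 3, log2 change 0.932 to 0.994). Mt1, Mt2 and Cebpd were also the 3 calls, all higher, among 17 glucocorticoid-responsive genes, where the same background share applies.

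Other lists gave few calls. Among 21 clock genes, Nfil3, a transcriptional repressor, went from 94.00 ± 14.4 to 245 ± 12.4 (log2 change 1.38, SE 0.19, adjusted p = 4.11e-05) and Cry1 from 69.4 ± 22.2 to 163 ± 17.5 (log2 change 1.27, SE 0.26, adjusted p = 0.0027), both called higher (1.66% of all tested genes), and Per3 was called lower (log2 change -1.09, SE 0.24, adjusted p = 0.00498, 0.975% of all). Cebpb was the one call of 42 ATF4 and amino acid response genes, and Phlda1 (log2 change 1.69, SE 0.21, adjusted p = 8.81e-06) that of 20 MAP kinase phosphatase and feedback genes. Both were higher, as were 1.66% of all tested genes. No gene was called among 50 of DNA replication and mitosis, 31 of endoplasmic reticulum folding, 21 heat shock genes and chaperones, 40 interferon and antigen presentation genes, 12 Kruppel-like factors and 46 lysosome and autophagy genes. Of these, heat shock genes had 7 members past the adjusted p alone, all in the higher direction (6.82% of all tested genes), led by Hspe1 (0.94), and the interferon list had a median log2 change of -0.31. The calls of Cry1 (unstimulated replicate 3, log2 change 0.989) and Per3 (unstimulated replicate 1, log2 change -0.912) did not hold without those libraries.

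Markers of other cell types ranged from 0 reads to low levels. Of 10 macrophage markers, Adgre1, Ptprc, Mrc1, Fcgr1 and Tyrobp had 0 reads in all 6 libraries labelled vector, and Lyz2 and Itgam had 0 without stimulation and 3 and 1 after NE. The summed normalized count of the list was 13.1 to 21.7 without stimulation and 41.7 to 59.6 after NE. The 2 tested members, Csf1r and Cd14, were called higher, as were 1.66% of all tested genes. Csf1r had 4 reads over the unstimulated libraries and 54 over the NE libraries, a ratio of 8.69 (95% counting interval 3.21 to 33.1). It reached 10 normalized counts in NE libraries only, so its place among the tested genes rested on its level after NE. Cd14 had a log2 change of 1.29, adjusted p = 0.0464. Leaving out a library ended the calls of Csf1r (unstimulated replicate 2 or 3 or NE replicate 1, 2 or 3, adjusted p 0.0721 to 0.131) and Cd14 (unstimulated replicate 1, 2 or 3 or NE replicate 1, 2 or 3, adjusted p 0.0636 to 0.177). Of 10 endothelial markers, Cdh5, Cldn5, Kdr, Tek and Tie1 had 0 reads, and the list summed to 19.5 to 28.3 and 21.6 to 35.6. Egfl7 of this list had 45 reads without stimulation and 90 after NE. The muscle determination genes Myod1, Myog and Myf5 had 0 reads, while Acta1 had 51 and 111. Of the neural list, Sox10, Th and Dbh had 0 reads, while Tubb3 had 86 and 189. Tested members of the endothelial (2), muscle (1) and Schwann cell or neural (2) lists were not called.

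The same NE exposure of tSema4B cells provides a comparison with no shared libraries, but with a shared filter and a shared estimate of each gene's spread. The calls in both lines are therefore not independent. In tSema4B cells, 157 of the 11998 tested genes were called higher and 91 lower. Of these, 82 genes were called higher in both lines, which is 41.2% of those called higher in cells labelled vector and 52.2% of those in tSema4B cells, and 24 were called lower in both, 20.5% and 26.4%. No gene was called in opposite directions. The sign of the response was the same in tSema4B cells for 187 of the 199 genes called higher and 102 of the 117 called lower. The share of all tested genes with the same sign in both lines was not counted. The median log2 changes of these 199 and 117 genes in tSema4B cells were 0.932 and -0.678, against -0.0048 over all tested genes. Across all tested genes, which are not independent replicates, the Pearson correlation of the 2 sets of log2 changes was 0.481. Ucp1 went from 0 ± 0 to 62.9 ± 3.10 in tSema4B cells, where its fitted log2 change rests on the added count because the unstimulated libraries had no read, and the difference between responses was not called (adjusted p = 0.259). For Nr4a1 the corresponding values were -0.17 and 1.71 (adjusted p of the difference = 0.181), and for Mt2 1.22 and 2.10 (0.137).

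**Figure D5:**
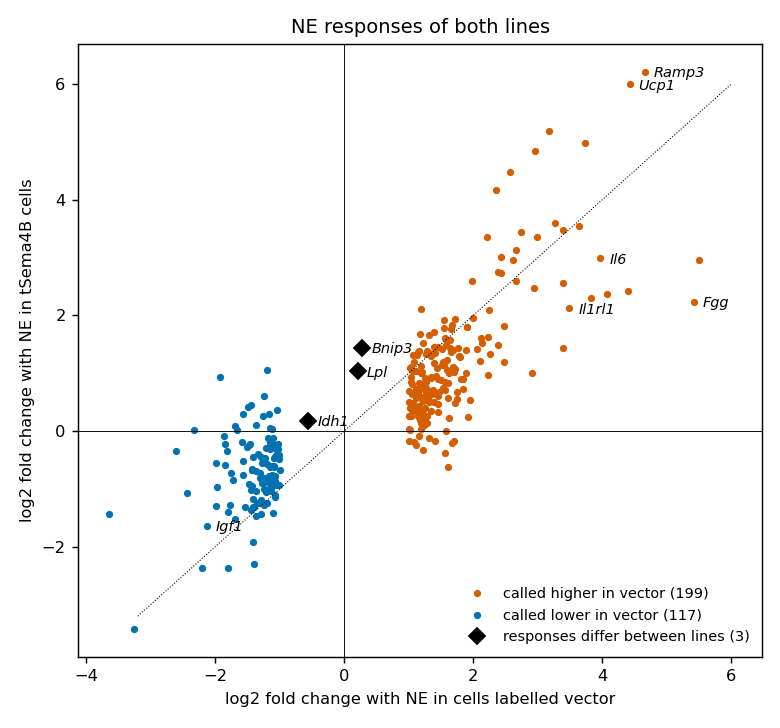
Log2 change after NE in tSema4B cells (y axis) against that in cells labelled vector (x axis) for the genes called in cells labelled vector, with the 3 genes whose responses differed by the test of the difference drawn as diamonds, though not called in cells labelled vector, and a dotted line where both changes are equal. Most points lie in the quadrants where both lines have the same sign.

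A test of the difference between the responses, on the same limma fit, called 3 genes (0.025% of those tested), against 87 with DESeq2, and 1227 had an unadjusted p under 0.05. In cells labelled vector, these 3 genes were not called. Lpl measured 7222 ± 639 to 8355 ± 390.3 in cells labelled vector (log2 change 0.21) and 1902 ± 152 to 3887 ± 343 in tSema4B cells (1.03), a difference of 0.817, SE 0.113, adjusted p = 0.00399. Idh1, the cytosolic isocitrate dehydrogenase that supplies NADPH, measured 4111 ± 594 to 2768 ± 69.1 in cells labelled vector (-0.56) and 1959.5 ± 91.5 to 2217 ± 33.6 in tSema4B cells (0.18), a difference of 0.738, SE 0.120, adjusted p = 0.0216. Bnip3, a mitophagy receptor, measured 557 ± 61.99 to 673 ± 41.5 in cells labelled vector (0.28) and 182 ± 45.9 to 482 ± 7.89 in tSema4B cells (1.43), a difference of 1.16, SE 0.201, adjusted p = 0.0371. With no filter on low values none of the 3 passed, and on leaving out single libraries the number called ranged from 1 to 31, the latter without tSema4B unstimulated replicate 2 and the former without any 1 of 6 others. Over the 12 such fits Lpl passed in 12, Idh1 in 5 and Bnip3 in 2. A response called in 1 line and not in the other was not read as a difference between lines without this test.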

How the data were processed

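RNA from the cells was made into libraries by SMART-Seq2 and Nextera XT and read as 100-base single ends. Per the submitters' processing notes, the tools were STAR 2.7.9a, HTSeq and DESeq2 and the builds mm10 and GRCm38.p4. The deposited signal is 1 table of gene counts that the authors divided by DESeq2 size factors. Whole reads were recovered from it, with 100% of values whole within 0.01, and 27 symbols altered to dates were not named. Strand handling in the counting is not given in the sources used here.

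Normalized counts of at least 10 in 3 of 12 libraries were taken as log2(value + 1) and fitted with limma 3.58.1 (R 4.3.3, trend) in a model of 4 groups with 8 residual degrees of freedom, two-sided, with Benjamini-Hochberg adjustment. Called genes had an adjusted p no higher than 0.05 and a log2 change of 1 or more in either direction. Named were reference genes, the 15 largest non-overlapping changes per direction with a mean of at least 50, up to 4 called members per list and direction, and up to 5 interaction genes per sign. A reference gene is not reported here. Other list members were named after their values were seen. The members and lists were chosen with earlier results of these data known. Low genes are given as reads, with exact binomial 95% intervals or a floor of 3 reads over a group, both for counting error only. Alternatives were other pseudocounts, filters, scalings and thresholds, edgeR 4.0.16 and DESeq2 1.42.0 on whole reads, a replicate block, each library left out, and, chosen after seeing the data, reads thinned to the shallowest library. The tests were tried on simulated data. Motifs were searched in RefSeq promoter windows, and gene positions come from the GRCm38 annotation.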

Additional observations from a re-analysis of the deposited data

Results flagged for a closer look

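For 3 genes the response to NE differed between cells labelled vector and tSema4B by the test of the difference itself (limma, 3 libraries per group). The response in tSema4B cells exceeded that in cells labelled vector by 0.817 on the log2 scale for Lpl (adjusted p = 0.00399), by 0.738 for Idh1 (adjusted p = 0.0216) and by 1.16 for Bnip3 (adjusted p = 0.0371). The unstimulated means were 7222 in vector and 1902 in tSema4B cells for Lpl, 4111 and 1959.5 for Idh1, and 557 and 182 for Bnip3, and the part of these levels in the difference was not tested. With no filter on low values the adjusted p was 0.139 for Lpl and 0.194 for both Idh1 and Bnip3. When 1 of the 12 libraries was dropped at a time, the adjusted p ranged from 0.000703 to 0.0387 for Lpl, from 0.000394 to 0.117 for Idh1 and from 0.00488 to 0.127 for Bnip3, so that Lpl passed in all 12 fits, Idh1 in 5 and Bnip3 in 2. DESeq2 called 87 genes in place of 3. Sema4b was also high in the libraries labelled vector (116800 normalized counts without stimulation, 281510 in tSema4B cells), and its part in the difference was not tested.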

How the results depend on the processing

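Counts of called genes were recomputed under each alternative. The number called lower fell from 117 to 68 with a pseudocount of 10 and to 77 with no filter on low values, while the number called higher stayed within 1.5 times 199 there. The adjusted p alone gave 818 higher and 574 lower, and a log2 threshold of 2 gave 41 and 7. Fits of edgeR (221 and 147), DESeq2 (225 and 160), the 6 libraries labelled vector alone (247 and 168) and thinned reads (206 and 129) were within 1.5 times of the main counts, as were a filter at 50 (158 and 82) and quantile normalization (220 and 119). Leaving out 1 library labelled vector gave 150 to 198 higher and 78 to 98 lower. The interaction called 3 genes in the main model, 0 with no filter, 87 with DESeq2 and 1 to 31 on leaving out 1 library, with 31 without tSema4B unstimulated replicate 2, 12 without tSema4B NE replicate 1 and 1 without vector unstimulated replicate 1 or 2, tSema4B unstimulated replicate 3, or vector NE replicate 1, 2 or 3. Of 83 called genes among the 112 named and tested, 50 kept their call under every alternative that gave a value (17 to 19 per gene), 33 lost it under at least 1, and none changed sign, while 1 uncalled gene, Plin1, was called under 4. Of 47 gene lists, 32 had a count of calls that moved by over 1.5 times under at least 1 alternative, by at most 3 genes within these 32. The ribosome biogenesis list, outside these 32, had 11 to 19 genes called higher, against 13 in the main fit. With the replicate number as a block, 192 genes were higher and 111 lower, 297 of them among the main calls, and the interaction again called 3. Same-numbered libraries did not deviate together, with correlations of -0.047 to 0.0282 over 18 pairs, so the numbers were not taken to pair the libraries. Depth limits low genes: in 19 called genes a group held 10 reads or fewer, 25 genes called higher reached 10 normalized counts in no unstimulated library and 14 called lower in no NE library. The causes of the changes in count were not tested.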

Other observations

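Other genes past the call rule, chosen after their values were seen and with no test of the grouping, included all 3 fibrinogen chains, plasma proteins made mainly by liver, which were higher. Fgb had 0 reads over the unstimulated libraries and 215 over the NE libraries. The lower limit of the 95% counting interval of its ratio was 37.2, and a floor of 3 reads over the unstimulated group gave 46.1. Fga went from 4.99 ± 5.23 to 47.7 ± 11.4 normalized counts (log2 change 3.40, SE 0.71, adjusted p = 0.00279), Hp, haptoglobin, from 1121 ± 147 to 2609.9 ± 145 (log2 change 1.23, SE 0.11, adjusted p = 1.07e-07), Lrg1 from 258 ± 44.9 to 814 ± 48.9 (log2 change 1.67, SE 0.24, adjusted p = 6.06e-05), Saa3, a serum amyloid A protein, from 56.3 ± 12.5 to 129.8 ± 16.6 (log2 change 1.21, SE 0.28, adjusted p = 0.00676) and the pentraxin Ptx3 from 73.6 ± 22.3 to 341 ± 61.9 (log2 change 2.23, SE 0.20, adjusted p = 1.86e-07). None of these overlapped between groups. Of the Serpina3 cluster, Serpina3n (1.25), Serpina3m (1.45), Serpina3i (2.91) and Serpina3f (2.43) were called higher by log2 change, the groups of Serpina3n and Serpina3m overlapped, and these near-identical paralogs may share reads.

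Has1, a synthase of the matrix polysaccharide hyaluronan, was called higher. Uap1, which makes UDP-N-acetylglucosamine, read 240, 238 and 296 in the unstimulated libraries and 951, 741 and 969.6 in the NE libraries (log2 change 1.77, SE 0.12, adjusted p = 3.08e-09), and Ugdh, which makes UDP-glucuronate, read 1119, 1086 and 1049.9 in the unstimulated libraries and 2518, 2236 and 2151 in the NE libraries (log2 change 1.08, SE 0.08, adjusted p = 1.22e-08). Gfpt2, the entry enzyme of hexosamine synthesis, went from 140.4 ± 13.9 to 369 ± 40.2 (log2 change 1.39, SE 0.15, adjusted p = 1.68e-06), whereas its paralog Gfpt1 did not pass (-0.16, adjusted p = 0.558). Cemip, which takes part in hyaluronan breakdown, was lower, with 48 reads over the unstimulated libraries and 2 over the NE libraries, a ratio of 0.0268 (95% counting interval 0.00316 to 0.102). Single genes also called higher were Srm, spermidine synthase, from 165 ± 14.3 to 549.7 ± 141 (log2 change 1.70, SE 0.18, adjusted p = 1.25e-06), Ctps from 176 ± 10.6 to 398 ± 66.4 (log2 change 1.16, SE 0.16, adjusted p = 3.00e-05) and Uck2 from 114 ± 11.1 to 271 ± 27.8 (log2 change 1.24, SE 0.16, adjusted p = 1.40e-05). The mitochondrial import genes Timm10 (log2 change 1.38, SE 0.26, adjusted p = 0.00137) and Chchd4 (log2 change 1.11, SE 0.18, adjusted p = 0.000285) were higher too. Cdo1, cysteine dioxygenase, was one of the most abundant genes called lower, at 4688, 4607 and 3704 in the unstimulated libraries and 1934, 1840.3 and 1596 in the NE libraries (log2 change -1.27, SE 0.12, adjusted p = 4.51e-07).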
